A study of Mus musculus with 59 samples.

Results

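Mutant neurons grown with mutant glia were compared with mutant neurons grown with wild-type glia, reading the RNA of the neurons. The comparison rests on 9 of the 20 neuron libraries, which belong to 43 libraries of mouse sandwich co-cultures in a series of 59 libraries that also holds spinal cord. The members were taken from the sample labels: every library of SOD1_G93A neurons with SOD1_G93A glia (6 libraries, 2 each at days 3, 7 and 14), and every library of SOD1_G93A neurons with wild-type glia (3 libraries, 1 at each of those days). All 9 libraries are of SOD1_G93A neurons, and the groups differ in their labels by the genotype of the glia. The wild-type glia libraries are numbered replicate 1 at day 3, replicate 2 at day 7 and replicate 1 at day 14, and each was matched with the mutant glia library of its own day and number.

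SOD1_G93A is a mutant human superoxide dismutase 1, and mice that carry it as a transgene lose motor neurons and serve as a model of amyotrophic lateral sclerosis (ALS). In such mice glia are known to shape the course of the disease, and microglia and astrocytes become reactive. In a sandwich culture neurons and glia are grown facing each other, and here RNA was taken from either the neurons or the glia for each library. The labels do not give the source of the neurons, how they were purified, the age of the glia donors, or whether replicates are separate cultures, and the spread behind each p-value may thus be technical. The labels also say that libraries were made either by a standard Illumina protocol or by transposase (Nextera), without saying which library was made how.

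Neuron and motor neuron markers were present in all 9 libraries, at levels that depended on the day. The neuronal tubulin Tubb3 had 893 and 817 RPKM (reads per kilobase of gene, scaled to the library's reads) at day 3, 328 and 740 at day 7, and 116 and 144 at day 14 with mutant glia, against 891, 649 and 148 RPKM on the same days with wild-type glia. The motor neuron factor Mnx1 had 96.6 and 88.7 RPKM at day 3, 40.1 and 80.8 at day 7, and 4.47 and 7.78 at day 14 with mutant glia, against 94.3, 64.1 and 9.34 RPKM with wild-type glia. Chat, which makes the transmitter acetylcholine, followed the same days, with 2.23 to 16.4 RPKM with mutant glia and 4.25 to 16.4 RPKM with wild-type glia. Both glia genotypes thus show the lowest neuronal levels at day 14.

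Markers of other cells were also present. The astrocyte filament Gfap had 140.6 and 65.5 RPKM at day 14 with mutant glia and 127.5 RPKM with wild-type glia, against 1.88 to 21.3 RPKM in the 6 libraries of earlier days. Summed over the marker list, astrocyte genes had 87.6 to 638 RPKM with mutant glia and 170 to 594 RPKM with wild-type glia, against 609 to 1602 RPKM in the 23 glia libraries. Microglia genes summed to 111 to 865 RPKM with mutant glia and 371 to 877 RPKM with wild-type glia, against 968 to 3004 RPKM in glia. Pluripotency genes, markers of undifferentiated stem cells, summed to 175 RPKM in replicate 1 of day 3 with mutant glia and 102.5 RPKM in its match with wild-type glia, against 0.557 to 50.9 RPKM in the other 7 libraries. In bulk RNA, fewer cells of a type and less RNA per cell cannot be told apart.

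The libraries held 7806986 to 22582993 reads on genes with mutant glia and 8049557 to 16552166 reads with wild-type glia. The 4 neuron libraries numbered replicate 1 at day 3 had rescaling factors of 1.443 to 1.666, against 0.815 to 0.964 in the other 16, and both libraries of the day 3 match are among those 4. Values are RPKM divided by these median-of-ratios factors, and differences were taken after log2(value + 1), a scale on which genes with low values differ by less than their ratio. Sums and comparisons with glia use factors over all 43 culture libraries, so such values differ slightly from the others. Mouse Sod1, the animals' own gene, had 170 to 468 RPKM with mutant glia and 153.5 to 527 RPKM with wild-type glia, a log2 difference of 0.12 (SE 0.14). Since the transgene is human, mouse Sod1 does not check the labels.

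Across all genes, no gene passed the test for a glia effect averaged over the 3 days. Of 14881 genes tested with limma, 0 (0%) had a Benjamini-Hochberg adjusted p under 0.05, and the lowest adjusted p was 0.354. At an unadjusted p under 0.05 there were 231 genes, of which 108 (0.726%) were lower and 123 (0.827%) were higher with mutant glia. The SE of a log2 difference had a median of 0.14 and the 95% interval a median half-width of 0.31, with 5 residual degrees of freedom. All 3 matches pointed to lower values with mutant glia for 12.5% of genes and to higher values for 9.84%. All that follows on single genes is given as values that did not pass, except where a passed test is named. A count of 0 called in a list below equals the 0% over all genes and says nothing about that list.

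Interferon-induced genes were the list that stood lowest in mutant neurons with mutant glia. Type I interferons are antiviral cytokines that signal through a receptor and kinase-activated factors, Stat2 among them. With Irf9 these factors bind a promoter element called the interferon-stimulated response element and switch on a set of antiviral and feedback genes. Glia and neurons both can make this response.

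Among the list's 18 genes RefSeq promoters (GRCm38.p6) were found for 13. The core of the response element, searched as GAAANNGAAA on both strands, with overlapping matches counted, occurred wholly within the 250 bases before the start in 7 of the 13, against 2.98% of 32851 promoters. Usp18, Mx1, Mx2 and Rtp4 are among those without an entry. Oasl2, Irf7, Ifi44, Ifih1, Ifit2 and Xaf1 had an entry but no match. The 4 windows below, of 100 bases each, belong to genes whose values are given next and show where these letters lie, in capitals. They are written 5′ to 3′ on the strand of the gene, so that a match on the opposite strand reads TTTCNNTTTC. The Isg15 window is chr4:156200837-156200936, minus strand, and its 3 overlapping matches form 1 run. The Ifit1 window is chr19:34640745-34640844, plus strand. The Rsad2 window is chr12:26456513-26456612, minus strand. The Bst2 window is chr8:71537543-71537642, minus strand.
Isg15: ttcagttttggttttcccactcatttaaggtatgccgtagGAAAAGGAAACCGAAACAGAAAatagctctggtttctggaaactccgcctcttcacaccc
Ifit1: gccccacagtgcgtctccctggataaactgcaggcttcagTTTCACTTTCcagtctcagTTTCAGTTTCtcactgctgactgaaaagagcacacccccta
Rsad2: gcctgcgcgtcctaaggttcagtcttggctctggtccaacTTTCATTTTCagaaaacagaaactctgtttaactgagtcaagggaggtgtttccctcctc
Bst2: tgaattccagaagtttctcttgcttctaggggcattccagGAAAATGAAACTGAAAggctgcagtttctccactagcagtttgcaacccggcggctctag
A match is a description of these letters and not a measured binding site.

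All 18 interferon-induced genes passed the filter on low values, and all 18 had lower fitted values with mutant glia, against 7936 of 14881 genes. The median log2 difference was -0.70, against -0.01 over all genes tested, and the single values ran from -1.03 to -0.20. None passed after adjustment over all genes (limma, adjusted p = 1 for each), while 12 of 18 had an unadjusted p under 0.05 and a lower value, against 0.726% of all genes. In 15 of 18 all 3 matches were lower, against 12.5% of all genes. In 12 of 18 the wild-type glia library stood above both mutant glia libraries on every day, against 1.85% of all genes. Mx1, counted among the 18, passed the filter only through libraries with wild-type glia, so its lower value is no independent evidence. With all culture libraries rescaled together, its highest value with mutant glia was 0.717 RPKM in mutant and 0.754 RPKM in wild-type neurons. This list was drawn up with earlier results of these data known, so its counts are a description. The median was -0.42 and 5 of 18 had an unadjusted p under 0.05 without the day 14 library with wild-type glia. That count was 6 without day 3 replicate 1, 7 without day 7 replicate 2 (both with mutant glia) and 8 without the day 7 library with wild-type glia. In all 9 such fits the median was below 0.

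Usp18, a protease that removes Isg15 from proteins and dampens interferon signalling, lies at chr6:121195924-121220935 (mm9). It had 4.28 and 4.03 RPKM at day 3, 4.05 and 2.91 at day 7, and 3.99 and 1.25 at day 14 with mutant glia, against 5.84, 9.90 and 16.7 RPKM on the same days with wild-type glia. Every wild-type glia library was above all 6 mutant glia libraries. The share of all genes separated in this way was not counted here or for the genes below. It cannot exceed the 1.85% of genes that were above both mutant glia libraries on each day. The log2 difference was -1.03 (SE 0.21, 95% interval -1.5014 to -0.5604), with an unadjusted p of 6.85e-04 and an adjusted p of 1 (limma). These values rest on 35 to 312 reads per library.

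Oasl2, a relative of the antiviral oligoadenylate synthetases, lies at chr5:115346943-115362244 (mm9). It had 9.65 and 9.61 RPKM at day 3, 8.38 and 6.64 at day 7, and 7.08 and 3.75 at day 14 with mutant glia, against 13.5, 18.4 and 27.6 RPKM with wild-type glia. Here too no mutant glia library reached the lowest wild-type glia library. The log2 difference was -0.96 (SE 0.21), and the matched differences were -0.44 at day 3, -1.35 at day 7 and -1.83 at day 14.

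Of the effector genes, Isg15, Ifit1 and Rsad2 had smaller matched differences at day 3 (-0.24, -0.19 and -0.10) than Usp18 (-0.37). Bst2 had a larger one (-0.61). Isg15, a ubiquitin-like protein that is attached to other proteins, had 5.42, 3.69, 7.32, 4.67, 7.33 and 2.504 RPKM in the 6 mutant glia libraries in order of day and number, against 6.61, 10.95 and 37.9 RPKM with wild-type glia. Ifit1, which binds foreign RNA caps, had 1.14, 1.68, 1.78, 1.77, 3.54 and 0.676 RPKM with mutant glia, against 1.44, 7.90 and 11 RPKM with wild-type glia. At day 3 the wild-type glia value of Ifit1 lay between the mutant glia values, and at days 7 and 14 it lay above both. Rsad2 (viperin), an antiviral enzyme, had 0.426 to 1.90 RPKM with mutant glia, against 1.21, 5.79 and 4.45 RPKM with wild-type glia. Bst2 (tetherin), which holds budding viruses at the cell surface, had 9.30 to 70.6 RPKM with mutant glia, against 37.0, 66.3 and 183 RPKM with wild-type glia. The groups of Bst2 overlap over the whole course, while on each day the wild-type glia library was the highest of the 3.

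Regulators of the response were lower as well. Irf7, the factor that amplifies interferon production, had 2.61, 1.19, 3.14, 2.05, 2.93 and 1.92 RPKM with mutant glia, against 3.58, 7.16 and 8.70 RPKM with wild-type glia (log2 difference -0.83, SE 0.22). Stat2 had a log2 difference of -0.38 (SE 0.14), at 7.79 to 12.8 RPKM with mutant glia and 13.4 to 15.9 RPKM with wild-type glia. The RNA sensor Ifih1 had a difference of -0.25 (SE 0.19). The members nearest to 0 were Mx2 at -0.20 (SE 0.16), Ifit2 at -0.21 (SE 0.24) and Mx1 at -0.22 (SE 0.17), and the highest value of either Mx gene in the 9 libraries was 2.01 RPKM, of Mx1 at day 7 with wild-type glia. Ifi44 had 0.104 to 1.65 RPKM with mutant glia, against 0.227, 1.13 and 8.79 RPKM with wild-type glia.

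**Figure D1:**
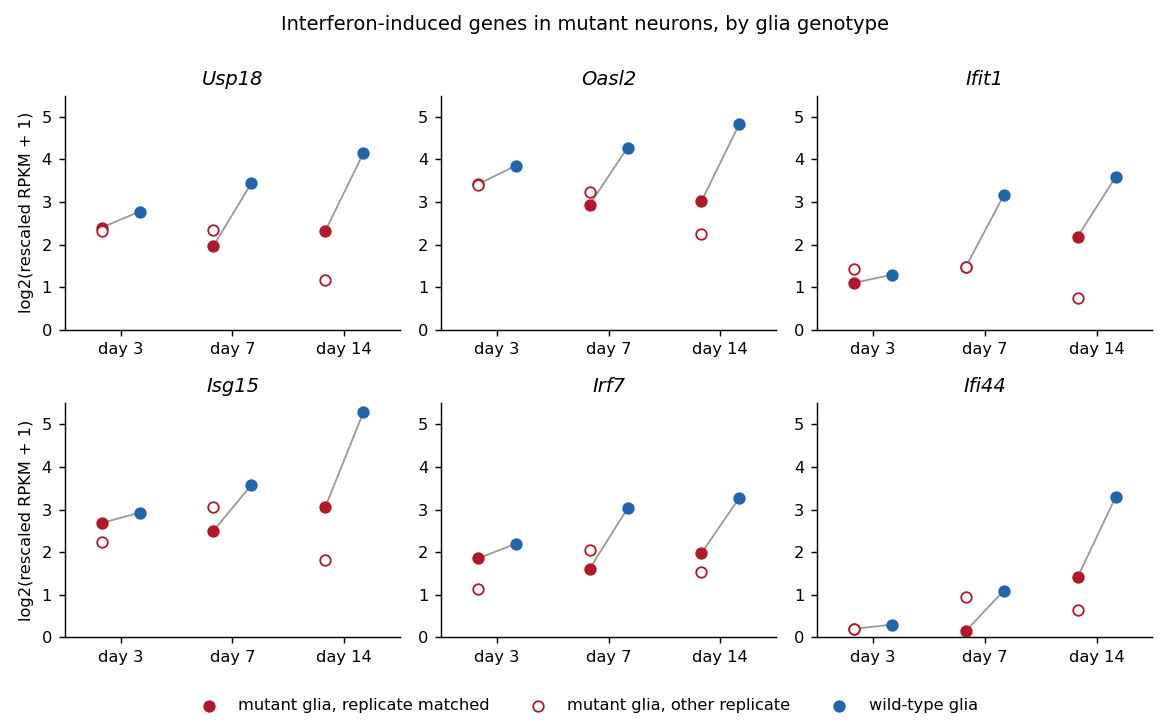
Levels of 6 interferon-induced genes in mutant neurons, as log2(rescaled RPKM + 1), by day. Red points are mutant glia libraries (filled where the replicate number matches, open for the other replicate), blue points are wild-type glia libraries, and grey lines join matches. Usp18 with wild-type glia lies above both mutant glia points on each day, at 5.84, 9.90 and 16.7 RPKM.

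The matched differences were smallest at day 3 in their median, and the test of a day difference called none of these genes. The median of the 18 matched differences was -0.22 at day 3, -1.09 at day 7 and -1.25 at day 14. From day 7 to day 14 single genes went both ways: 7 of the 18 were nearer to 0 at day 14, among them Ifit2 (-1.03 at day 7 and -0.14 at day 14) and Rsad2 (-1.58 at day 7 and -0.91 at day 14). Summed over the 18 genes, mutant neurons with mutant glia had 75.6 and 54.9 RPKM at day 3, 120.9 and 77.4 at day 7, and 144 and 104.5 at day 14, against 100.5, 190 and 395 RPKM with wild-type glia. With mutant glia the sums were higher on each later day within a replicate number, but day 14 replicate 2 (104.5) stood below day 7 replicate 1 (120.9). The wild-type glia sums were higher on each later day, and on every day the wild-type glia sum was the highest of the 3. Bst2 weighs heavily in these sums, reaching 69.1 RPKM with mutant glia and 181.6 RPKM with wild-type glia. With mutant glia single genes went both ways from day 3 to day 14. Usp18 went from 4.28 and 4.03 to 3.99 and 1.25 RPKM, and Ifit2 from 1.32 and 1.74 to 13.5 and 8.13 RPKM. In the test across days 3 of the 18 had an unadjusted p under 0.05 and the adjusted p of each was 1 (limma).

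**Figure D2:**
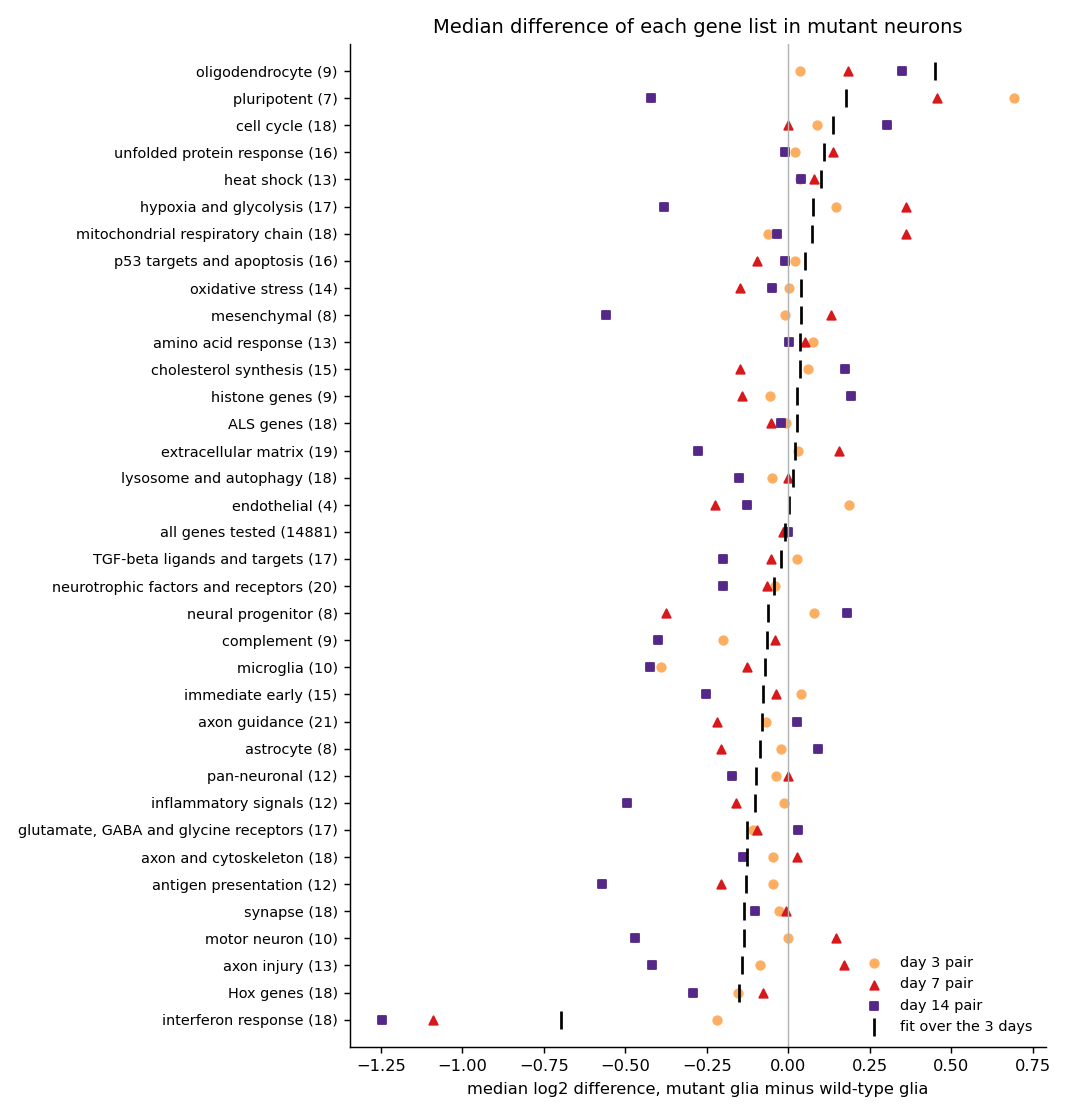
Median log2 difference (mutant glia minus wild-type glia) of each of 35 gene lists and of all tested genes, with the number of tested genes in brackets. Coloured points are the 3 matches by day and black bars the fit over the days. The interferon response list lies lowest, with a fitted median of -0.70, and the oligodendrocyte list highest, at 0.45.

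Wild-type neurons, in the other 11 neuron libraries, gave values in the same direction when averaged over the days. Both estimates come from 1 fit that shares the replicate terms of each day. Whether both neuron genotypes faced the same glia preparations was not tested, so wild-type neurons need not be a separate replication. In wild-type neurons all 18 interferon-induced genes were lower with mutant glia, with a median log2 difference of -0.48. Mx1, which passed the filter only through libraries with wild-type glia, is among them. The difference between the neuron genotypes was tested directly, and 0 of 14881 genes (0%) passed, with a lowest adjusted p of 0.926 (limma) and 382 genes at an unadjusted p under 0.05. Among the 18 the median of the difference was -0.13, 14 were further below 0 in mutant neurons, and 0 had an unadjusted p under 0.05. Usp18 had -1.03 in mutant and -0.49 in wild-type neurons, a difference of -0.54 (SE 0.27). Its levels in wild-type neurons follow, with all culture libraries rescaled together. At day 7 they were 9.10 and 7.94 RPKM with mutant glia, against 12.6 and 20.2 RPKM with wild-type glia. At day 14 they were 9.77 and 1.44 RPKM, against 9.56 and 1.94 RPKM, so replicate 1 was not lower with mutant glia. Oasl2 had 14.2 and 4.07 RPKM at day 14 with mutant glia, against 18 and 6.01 RPKM. A p that misses the threshold does not show that both neuron genotypes respond alike.

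**Figure D3:**
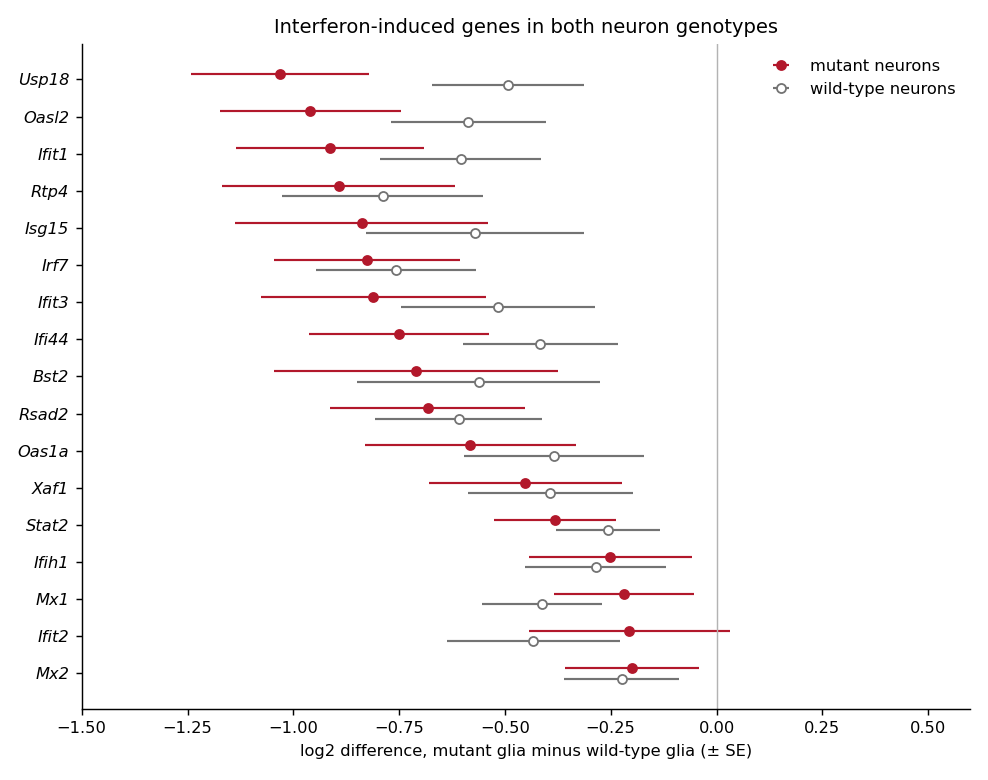
Fitted log2 difference (mutant glia minus wild-type glia) with its SE for 17 of the interferon-induced genes, in mutant neurons (red) and in wild-type neurons (grey, open). All points lie left of 0, from -1.03 for Usp18 in mutant neurons to -0.20 for Mx2 in mutant neurons.

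The glia of these cultures had the same order in their medians over days, but not on every day. Summed interferon gene levels were 189 to 405 RPKM (median 255) in mutant glia facing mutant neurons, against 192 to 637 RPKM (median 454.5) in wild-type glia facing mutant neurons. The median of each of the 18 genes was lower in mutant glia than in wild-type glia. These medians pool 2 day 3 libraries of mutant glia and 1 of wild-type glia, and at day 3 the order of the same-numbered libraries was the other way: Usp18 had 6.22 RPKM in mutant glia and 5.85 RPKM in wild-type glia, and Oasl2 had 14.8 RPKM in mutant glia and 12.4 RPKM in wild-type glia. Beside wild-type neurons the sums were 182 to 421 RPKM in mutant glia and 181 to 590 RPKM in wild-type glia. For 17 of the 18 genes the median over all neuron libraries was below that over all glia libraries.

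Genes of the Y chromosome also differed between glia libraries, and were measured in both layers. Ddx3y, an RNA helicase, and Eif2s3y, a translation initiation subunit, are encoded there and made only by male cells. In mutant glia facing mutant neurons Ddx3y had 7.72 to 31.1 RPKM, and in wild-type glia facing mutant neurons 0.0490 to 21.5 RPKM, with the 2 day 7 libraries at 0.0522 and 0.0490 RPKM. Same-numbered glia libraries were close whichever neurons they faced, as at day 14 replicate 2 with 31.1 and 30.7 RPKM in mutant glia. At day 7 Y-linked RNA in the glia went with glia genotype, and the part of donor sex in the differences was not tested. In the neurons Ddx3y had 0.137 and 0.310 RPKM at day 3, 1.46 and 1.76 at day 7, and 0.992 and 3.70 at day 14 with mutant glia, against 0.326, 0.0240 and 0.244 RPKM with wild-type glia. Eif2s3y had 0.469 and 0.433 RPKM at day 3, 2.98 and 2.70 at day 7, and 1.88 and 6.09 at day 14 with mutant glia, against 0.419, 0 and 0.741 RPKM with wild-type glia. Its log2 difference was 1.00 (SE 0.30, unadjusted p = 0.00728, adjusted p = 1, limma), among the 8 lowest p-values of genes higher in all 3 matches.

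Set against the glia library of the same pairing, day and number, Ddx3y in the neurons came to 1.06% to 12.6% of the glial level with mutant glia, and to 9.24% in the day 14 match with wild-type glia. The interferon sum in the neurons came to 22.2% to 55.3% of the glial level with mutant glia, against 41.8% and 72.3% at days 7 and 14 with wild-type glia. For Usp18 these shares were 27.3% to 65.3% with mutant glia and 56.2% and 77.0% with wild-type glia. In each library with both shares, that of the interferon sum was above that of Ddx3y. Gfap had wider shares, 0.431% to 82.0% with mutant glia and 7.68% and 70.2% with wild-type glia. C1qa of microglia had 5.05% to 64.4% with mutant glia and 35.8% and 43.4% with wild-type glia. At day 14 with mutant glia the Gfap share was above the interferon share, at 64.4% and 82.0% against 51.3% and 55.3%. In the other libraries the Gfap share was below the interferon share. The C1qa share was above the interferon share in replicate 2 of days 7 and 14 with mutant glia. It was also above in the day 7 match with wild-type glia, and below in the other libraries. Whether glia of one type left more RNA in the neuron libraries than others was not tested, nor was its part in the interferon values.

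**Figure D4:**
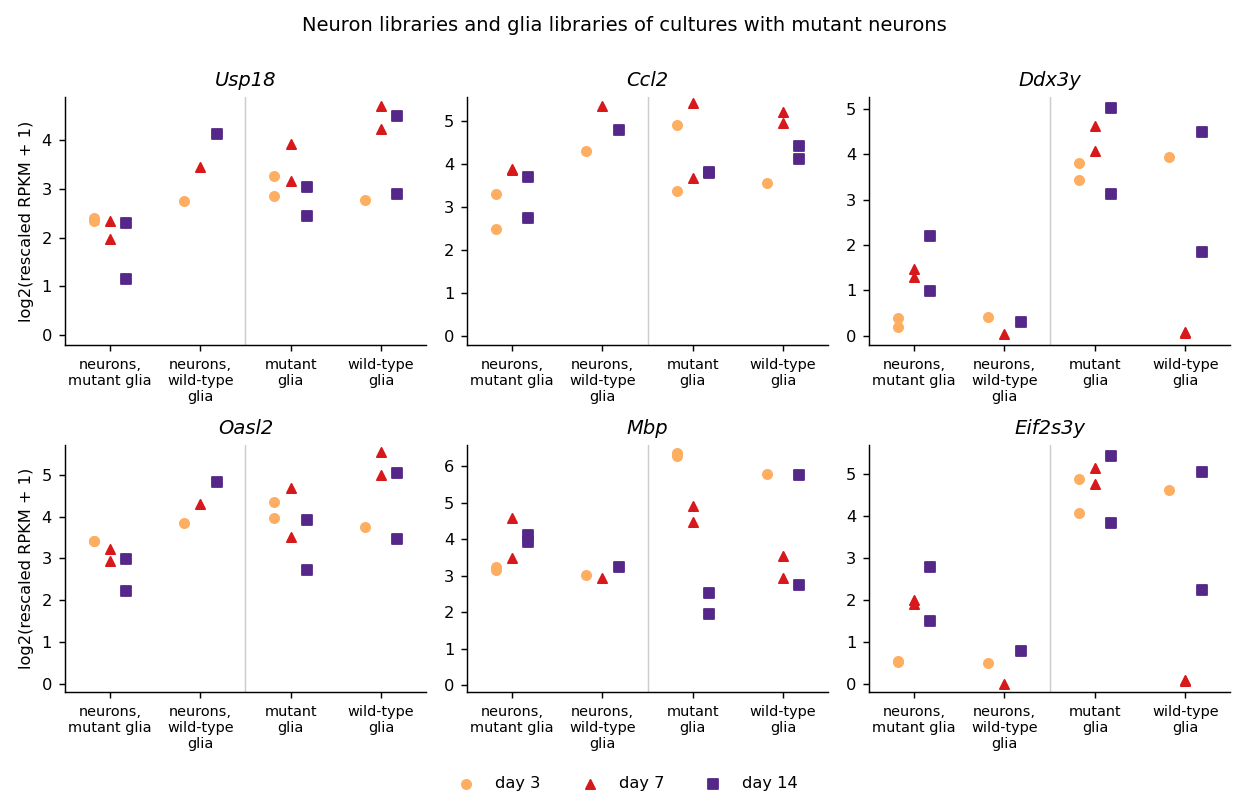
Levels of Usp18, Oasl2, Ccl2, Mbp, Ddx3y and Eif2s3y as log2(rescaled RPKM + 1) in neuron libraries (left of the line) and glia libraries (right) of cultures with mutant neurons, 1 point per library, by day. The 2 day 7 libraries of wild-type glia lie near 0 for Ddx3y and Eif2s3y, as does the day 7 neuron library with wild-type glia.

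The chemokines Ccl2 and Ccl7 were also lower. They attract monocytes, are made by many activated cells and belong to the list of inflammatory signals. Ccl7 (chr11:81859214-81861028, mm9) had 4.81, 1.77, 5.73, 4.40, 7.81 and 4.17 RPKM with mutant glia, against 10.6, 15.1 and 13.8 RPKM with wild-type glia. Every mutant glia library was below every wild-type glia library, which can hold for at most 1.85% of all genes. The log2 difference was -1.03 (SE 0.23, unadjusted p = 0.00131, adjusted p = 1, limma). Ccl2 had 8.75, 4.59, 13.7, 13.3, 12.1 and 5.88 RPKM with mutant glia, against 18.9, 38.7 and 26.8 RPKM with wild-type glia, and likewise did not overlap (-0.94, SE 0.24). In wild-type neurons the differences were -1.05 (SE 0.20) for Ccl7 and -0.83 (SE 0.21) for Ccl2. The levels of Ccl2 there follow, with all culture libraries rescaled together. At day 7 they were 14.5 and 15.4 RPKM with mutant glia, against 45.8 and 67.2 RPKM with wild-type glia. At day 14 they were 17.0 and 2.57 RPKM, against 17.9 and 2.56 RPKM. In the neuron libraries Ccl2 came to 30.5% to 115% of the matched glial level with mutant glia, and to 131% in both matches with wild-type glia. The other 10 tested members of that list had differences of -0.19 to 0.19, so the list's median was -0.10.

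Of the lists near these in function, antigen presentation had 0 of 12 tested members called and a median of -0.13. H2-K1, a class I molecule that shows peptides to T cells, had 11.6 to 64.8 RPKM with mutant glia, against 28.6, 55.0 and 105 RPKM with wild-type glia. Its transporter Tap1 had a difference of -0.28 (SE 0.21), and 5 of 12 members were lower in all 3 matches, against 12.5% of all genes. Complement genes had 0 of 9 called, a median of -0.07 and 6 of 9 lower in all 3 matches (12.5% of all genes), with C3, the central complement protein, at -0.55 (SE 0.25). Microglia markers had 5 of 10 lower in all 3 matches (12.5% of all genes). Their fitted median was -0.07, while their matched medians were -0.39, -0.13 and -0.42 from day 3 to day 14, below 0 on each day as those of the interferon list were, and their part in the interferon values was not tested. Of the 10 microglia markers 8 had fitted values below 0, against 7936 of 14881 genes. Among those 8 were the fractalkine receptor Cx3cr1 at -0.26 (SE 0.13) and the homeostatic marker Tmem119 at -0.30 (SE 0.24). The other 2 were above 0, and 1 of them, Tyrobp at 0.34 (SE 0.50), was the member furthest from 0.

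Myelin genes stood on the higher side. Oligodendrocytes wrap axons in myelin, and their list had 0 of 9 members called, a median log2 difference of 0.45 and 4 of 9 members higher at an unadjusted p under 0.05, against 0.827% of all genes. In 4 of 9 all 3 matches were higher, against 9.84% of all genes. Mbp, myelin basic protein, had 7.92, 8.35, 10.2, 22.7, 14.4 and 16.7 RPKM with mutant glia, against 7.11, 6.52 and 8.57 RPKM with wild-type glia. Its log2 difference was 0.97 (SE 0.27, unadjusted p = 0.00484, adjusted p = 1, limma). The wild-type glia library of Mbp was the lowest of each day, a pattern that 1.10% of all genes showed.

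The lineage factors of oligodendrocytes varied. Olig1 had a difference of -0.06 (SE 0.44), Olig2 one of 0.00 (SE 0.39) and the late surface marker Mog one of 0.05 (SE 0.16). Sox10, a further lineage factor, had a difference of 0.61 (SE 0.44), with matched differences of 0.37, -0.02 and 1.43 from day 3 to day 14. Mog had 0.649 to 4.65 RPKM with mutant glia and 0.531 to 3.90 RPKM with wild-type glia, overlapping throughout. In the glia, Mbp had 2.86 to 81.4 RPKM in mutant glia and 5.69 to 53.6 RPKM in wild-type glia facing mutant neurons. In the neuron libraries Mbp came to 10.3% to 494% of the matched glial level with mutant glia, and to 62.6% and 149% with wild-type glia. The part of glial RNA in the myelin values was not tested. The astrocyte list had 0 of 8 members called and a median of -0.09. Of these 8, 6 were below 0, against 7936 of 14881 genes, with Sox9 at -0.18 (SE 0.18). S100b, an astrocyte calcium-binding protein, went the other way at 0.82 (SE 0.31). It was the 1 astrocyte marker with an unadjusted p under 0.05 (limma). It had 1.56 to 7.26 RPKM with mutant glia and 0.795 to 1.77 RPKM with wild-type glia, from 3 to 27 reads a library.

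The neurons' own genes gave small values, and no call, as was so for all 14881 genes tested (0%). Motor neuron genes had 0 of 10 called and a median of -0.14, with 0 of 10 lower or higher in all 3 matches. Chat had a difference of -0.35 (SE 0.21, 95% interval -0.82 to 0.11) and Mnx1 one of -0.31 (SE 0.18). Their matched medians were 0.00 at day 3, 0.15 at day 7 and -0.47 at day 14, so that the day 14 match stood apart from the others. Pan-neuronal genes had 0 of 12 called and a median of -0.10, with the neurofilament Nefl at -0.23 (SE 0.20). Synapse genes had 0 of 18 called, a median of -0.14 and 17 of 18 with negative values, against 7936 of 14881 genes. Among them were the active zone protein Bsn at -0.34 (SE 0.18) and the vesicle fusion regulator Cplx1 at -0.26 (SE 0.14). Transmitter receptor subunits had 0 of 17 called and a median of -0.13, with the NMDA receptor subunits Grin2b at -0.39 (SE 0.18) and Grin1 at -0.32 (SE 0.18).

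Injury and survival genes likewise held no call, as was so for all genes tested (0%). In the axon injury list 0 of 13 passed, with a median of -0.14. The neuropeptide Nts, which injured neurons make, had a difference of -0.35 (SE 0.12, unadjusted p = 0.0171, adjusted p = 1, limma), and Gal, another such peptide, had -0.27 (SE 0.24). Neurotrophic factors and receptors had 0 of 20 called and a median of -0.04, with the GDNF co-receptor Gfra1 at -0.36 (SE 0.17). Of 16 tested genes of the p53 and apoptosis list 0 passed, with the death effector Bbc3 at -0.28 (SE 0.17) and the death receptor Tnfrsf10b at 0.26 (SE 0.20). ALS genes had 0 of 18 called and values of -0.20 to 0.12, with the axonal motor Kif5a lowest.

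Stress lists were also near 0. The unfolded protein response had 15 of 16 members above 0, against 6945 of 14881 genes, with 0 called and a median of 0.11. Trib3 had 0.27 (SE 0.14) and its inducer Atf4 had 0.16 (SE 0.10). Such counts of signs were not tested in any list. Heat shock genes had 11 of 13 above 0, against the same 6945 of 14881, and a median of 0.10, with Hspb1 at 0.29 (SE 0.26). Oxidative stress genes had a median of 0.04, amino acid response genes 0.04, cholesterol synthesis genes 0.04, and lysosome and autophagy genes 0.01, with 0 called in each. Respiratory chain genes had a median of 0.07 and glycolysis and hypoxia genes 0.08, and the matches went both ways. From day 3 to day 14 the matched medians were -0.06, 0.36 and -0.035 for the respiratory chain and 0.15, 0.36 and -0.38 for glycolysis and hypoxia.

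Hox genes, which set position along the cord, had 0 of 18 called and a median of -0.15, with 10 of 18 lower in all 3 matches against 12.5% of all genes. Hoxb6 had 59.7, 51.2, 41.4, 23.8, 39.5 and 34.3 RPKM with mutant glia, against 68.7, 32.8 and 57.6 RPKM with wild-type glia (-0.42, SE 0.19). The groups overlapped at day 7, where the mutant glia library with the other number was higher than the wild-type glia library. Cell cycle genes had 0 of 18 called and a median of 0.14, with 7 of 18 higher in all 3 matches against 9.84% of all genes. The mitotic kinase Cdk1 had 9.86, 2.08, 18.5, 8.05, 27.5 and 15.3 RPKM with mutant glia, against 8.17, 6.62 and 21.4 RPKM with wild-type glia (0.27, SE 0.19), and these groups overlapped. Pluripotency genes had 7 of 7 above 0, against 6945 of 14881 genes, and a median of 0.18, with Pou5f1 at 0.37 (SE 0.16). Their matched medians, however, were 0.69, 0.46 and -0.42 from day 3 to day 14. Extracellular matrix and TGF-beta lists had 0 of 19 and 0 of 17 called.

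By the 8 lowest p-values with all 3 matches alike, the lower side held Usp18, Oasl2, Ccl7, Kif7 and 4 entries without a gene symbol. Kif7, a ciliary kinesin, rests on 0 to 4 reads per library. The higher side included Mbp, Eif2s3y, the muscle myosin light chain Mylpf, the ubiquitin ligase adaptor Klhl13, the ribosomal protein gene Rps3a1, Cdpf1 and 1 entry without a symbol. Klhl13 had 22.1, 14.6, 15.3, 17.3, 46.4 and 23.2 RPKM with mutant glia, against 17.8, 9.94 and 32.6 RPKM with wild-type glia (0.44, SE 0.12). Rps3a1 has near-identical copies in the genome, so that its value of 0.41 (SE 0.12) is uncertain. All 16 had an adjusted p of 1 (limma).

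Asking whether the glia effect differed among the 3 days, 2 of 14881 genes (0.0134%) passed, Pga5 and Cubn, both at an adjusted p of 0.0281 (limma), with 261 genes at an unadjusted p under 0.05. Pga5, a pepsinogen (chr19:10743447-10752562, mm9), had 0.957 and 0 RPKM at day 3, 0 and 0.138 at day 7, and 0 and 0.0437 at day 14 with mutant glia, against 0.676, 9.34 and 0.0716 RPKM with wild-type glia. Cubn, cubilin, a receptor for vitamin B12 uptake (chr2:13197965-13413552, mm9), had 1.57, 0.430, 0.398, 0.382, 0.379 and 0.261 RPKM with mutant glia, against 1.21, 11.5 and 0.338 RPKM with wild-type glia. For both genes 1 library, day 7 with wild-type glia, stood far above the other 8, on 241 reads for Pga5 and 2386 reads for Cubn. The fitted log2 differences were 0.29, -3.31 and -0.02 for Pga5 at days 3, 7 and 14, and 0.38, -3.22 and -0.08 for Cubn. Without that library Cubn had an unadjusted p of 0.234 and Pga5 did not pass the filter on low values.

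Other genes were high in the same library, and they were picked after their values were seen, as those that most exceeded the next of the 20 neuron libraries. With all culture libraries rescaled together, Amn, the partner of cubilin in the same receptor, had 5.70 RPKM there, against 0.0610 to 1.68 RPKM in the other 19 neuron libraries. The water channel Aqp8 had 5.36 RPKM, against 0 to 1.94 RPKM, and the trypsin inhibitor Spink1 had 4.97 RPKM, against 0 to 2.53 RPKM. Apob and Apoa4, lipoproteins of gut, liver and yolk sac, had 1.61 and 1.01 RPKM, against at most 0.0714 and 0.0392 RPKM in the other neuron libraries. Ttr and Foxa2, which like several of these genes are known from endoderm, did not stand out there: Ttr had 2.47 RPKM, against up to 3.79 RPKM in the other 19, and Foxa2 had 3.56 RPKM, against up to 21.7 RPKM. The glia libraries had at most 0.164 RPKM of Pga5 and 1.56 RPKM of Cubn.

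**Figure D5:**
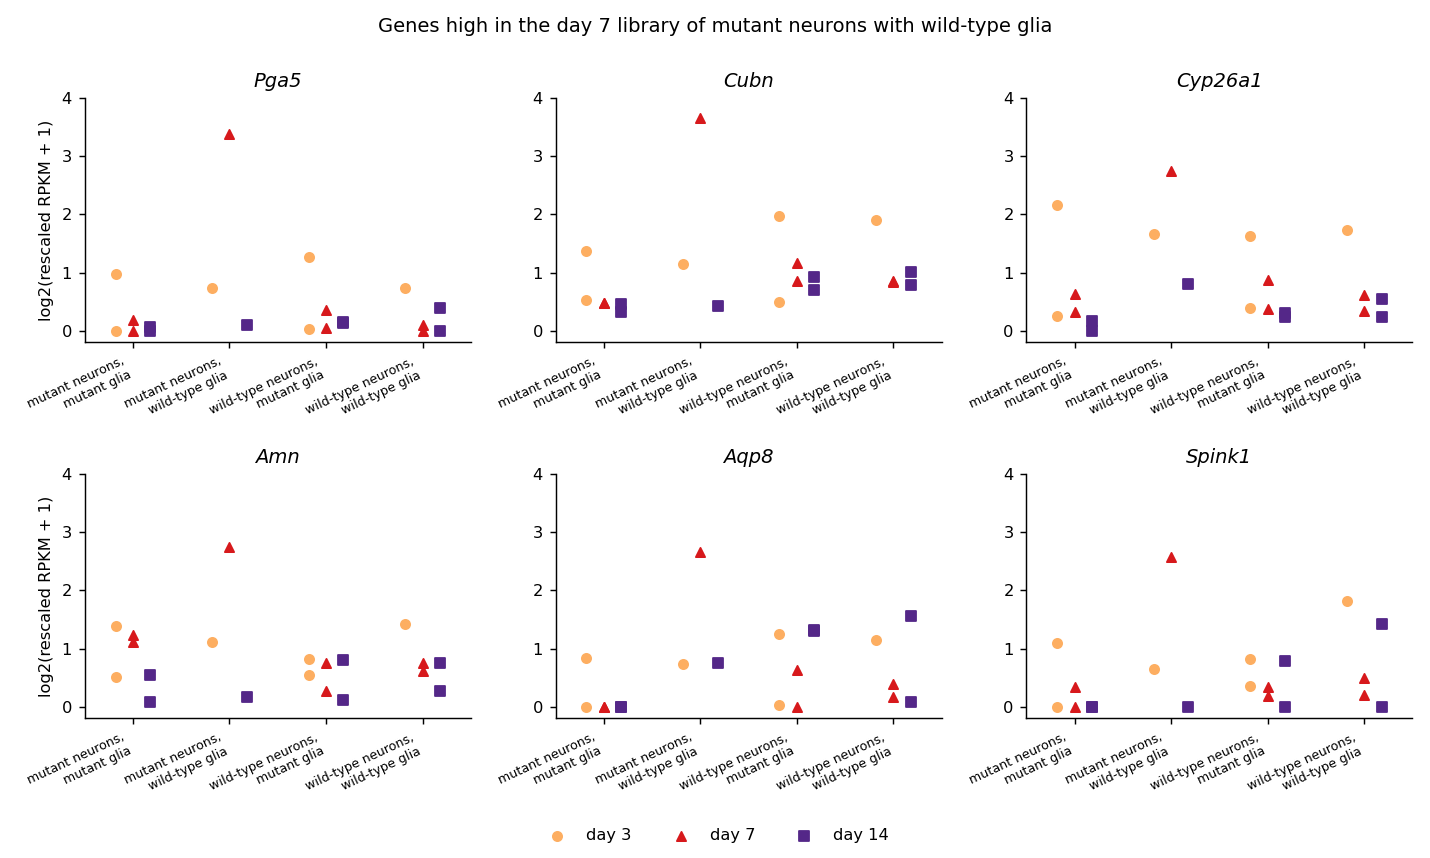
Levels of Pga5, Cubn, Cyp26a1, Amn, Aqp8 and Spink1 as log2(rescaled RPKM + 1) in the 20 neuron libraries by pairing, 1 point per library, with shape and colour by day. The single day 7 library of mutant neurons with wild-type glia is the highest point in every panel, at 9.44 RPKM for Pga5 and 11.6 RPKM for Cubn.

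The day 7 library also lacked genes that its neighbours had. Rhox6, an X-linked homeobox gene of placenta and germ line, had 14.5 and 13.5 RPKM at day 7 with mutant glia, against 0.757 RPKM with wild-type glia. At day 3 it had 11.03 and 0.140 RPKM with mutant glia and 8.92 RPKM with wild-type glia. Cldn4, a tight junction protein of epithelia, had 9.11 and 4.67 RPKM at day 7 with mutant glia, against 0.245 RPKM with wild-type glia. Neither passed the test across days (adjusted p = 0.636 for each, limma), and the retinoic acid degrading enzyme Cyp26a1 did not either (adjusted p = 0.208). Pga5, Cyp26a1 and Cubn were also among the 6 lowest p-values of the difference between neuron genotypes, where they did not pass.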

How the data were processed

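Trizol and RNeasy columns were used to extract RNA, per the labels' protocols. The authors deposited RPKM values of 27389 entries, 127 without any value; Bowtie and the mm9 build are named, per the submitters' processing notes, and the sources used here do not give the counting tool. Depth was recovered from the values: in all 22784 entries above 0 (100%) the steps gave whole reads within 0.05, and their totals are 6374507 to 29250533 reads per neuron library. Entries were named by Entrez ID (18851), by alias (550) or kept as deposited (7861).

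Values were rescaled by median-of-ratios factors and tested as log2(value + 1) with limma 3.58.1 (R 4.3.3, trend), keeping genes that reached 1 in 2 libraries. All 20 neuron libraries entered, with terms for every combination of pairing and day and for the replicate number within a day (the block), since wild-type glia have 1 library a day, whose spread is assumed to be that of the other groups. Adjusted p-values are Benjamini-Hochberg over all genes, two-sided, with a threshold of 0.05. Same-numbered libraries of a day deviated together with a correlation over 0.1 in 6 of 7 pairs (0.07 to 0.74), so the numbers are not shown to pair every library. None of these pairs holds a library of mutant neurons with wild-type glia. Those libraries correlated at 0.993, 0.986 and 0.986 (days 3, 7 and 14) with the mutant glia library of the same number. With that of the other number the correlations were 0.94, 0.92 and 0.965. The fit was run on simulated data with independent noise of its own fitted spread, without rescaling or filter. Changes were planted only in genes of higher level. Such data do not test faults of a whole library or genes of low level.

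The members, lists and tests were chosen with earlier results of these data known. Named were the 8 lowest p-values in each direction with all 3 matches alike, up to 2 members of each list with the largest differences, the 6 lowest p-values of each other test, Sod1 and defining markers. The other interferon genes, H2-K1, C1qa, Olig1, Olig2 and Ddx3y were added after their values were seen. Alternatives were the deposited scale, no block, a pseudocount of 0.1, no filter, a filter at 5, other terms, voom on recovered reads, and leaving out each library. Some list members count in their lists but are not reported here singly.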

Additional observations from a re-analysis of the deposited data

Results flagged for a closer look

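The glia effect differed among days for Pga5 (adjusted p = 0.02805, limma) and for Cubn (adjusted p = 0.02805, limma), by a test of the difference itself. Both calls rest on 1 library, day 7 with wild-type glia: Pga5 passed the filter on low values only with that library, so its call is no independent evidence, and Cubn had an unadjusted p of 0.234 without it. In both, that library was the only one of the 9 above 2 RPKM, at 9.34 RPKM for Pga5 and 11.5 RPKM for Cubn. In it 7 genes stood more than 1 log2 unit above every other neuron library. The other 19 libraries had 0 to 36 such genes (median 2), and 3 of them had more than 7, with 36, 22 and 10.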

How the results depend on the processing

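The glia effect averaged over days called 0 genes in every alternative but 2: 15 with no filter on low values, all lower, and 3 without the day 3 wild-type glia library (Pga5, Cyp26a1 and Cubn, lower). Leaving out each library in turn gave 0 to 3. The test across days, with 2 calls, gave 1 on the values as deposited (Pga5), 1 with voom (Cubn), 15 with no filter, and 0 with no replicate block, with a pseudocount of 0.1 and with a filter at 5. Leaving out each library gave 0 to 2 calls, with 0 without the day 7 wild-type glia library and without each mutant glia library of days 3 and 7. The difference between neuron genotypes, with 0 calls, gave 13 with no filter, 3 of them higher, and 0 to 0 with each library left out. The Cubn neuron genotype difference, -0.96, reversed to 0.25 without the day 7 wild-type glia library and was -1.66 without that of day 3. The interferon median lay below 0 in 17 of 17 alternatives, from -1.04 to -0.42, and from -0.95 to -0.42 with a library left out. Without the replicate block it was -1.04, with 11 of 18 genes at an unadjusted p under 0.05, and 93 genes over all, against 231 with the block. The causes were not tested. Over 1084 values of results and named genes, 989 stayed, 78 moved, 15 were weaker, 1 was stronger and 1 reversed. Wild-type glia have 1 library a day, so the precision of each day rests on the spread of other groups.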
